A study of Rattus norvegicus with 5 samples.

Results

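AMP-activated protein kinase (AMPK) was followed at the RNA level through the genes of its catalytic alpha, scaffold beta and nucleotide-binding gamma subunits, Prkaa1, Prkaa2, Prkab1, Prkab2, Prkag1 and Prkag2, and the genes of its upstream kinases, Stk11 (LKB1) and Camkk2. The members were the non-control spots whose gene name in the scanner files, ignoring a suffix for predicted genes, was 1 of these 8 symbols. This gave 8 genes, 10 probes and 19 spots of 35655 genes, 41012 probes and 43379 spots on each array. The 8 genes were picked by name with their values on these arrays already known, so their values are given as a description and no member was tested.

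The samples were cultures of Fao, an established hepatoma line from rat with a liver-like pattern of gene expression. After 2 days of growth with 10% serum, starvation lasted 16 h in the presence of the glucocorticoid drug dexamethasone (10 nM), and 10 nM insulin followed for 0, 15, 30, 45 or 60 min. All 5 groups carried the dexamethasone, and in treatment they differed by the time in insulin alone. The 60 min array also differed from the others in slide and scan. Each time had 1 sample and 1 array and no value has a replicate, so precision is limited by how few arrays there are. Insulin-free cultures of matched duration were not analysed here.

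AMPK is an energy sensor. AMP and ADP bind the gamma subunit when ATP runs short, LKB1 in its complex with STRAD and MO25 phosphorylates the activation loop of the alpha subunit, and CaMKK2 does so in response to calcium. In liver the active kinase phosphorylates acetyl-CoA carboxylase and so slows fatty acid synthesis, while insulin signalling through AKT favours storage. AMPK is mostly controlled by phosphorylation of its protein, which these RNA arrays did not measure.

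A level here is log2 of the processed spot intensity over the 75th percentile of its array, and a change is the level at a time minus that at 0 min. Levels of different probes are not compared, because probes differ in brightness for the same amount of RNA. Between 50.87% and 56.45% of the spots were well above background by the scanner software. The arrays of 0 to 45 min shared slide 1 and a scan, with 75th percentiles of 253.5 to 300.2 intensity units, while the 60 min array was on slide 2 with its own scan and a 75th percentile of 479.3. Time and slide cannot be told apart at 60 min. As a measure of error, probes printed as 10 spots had a median SD between spots of 0.12 to 0.14 log2 units on an array, which gives a change between a pair of arrays a technical SD of 0.18 to 0.20. This error covers spots of 1 array and not cultures. All 8 hepatocyte markers examined, Alb and Hnf4a among them, were well above background on all 5 arrays, while the endothelial marker Pecam1, the biliary marker Epcam and the muscle marker Myh4 were so on none. The muscle marker Ckm, the fibroblast marker Col1a1, the macrophage marker Cd68, the endothelial marker Cdh5 and the biliary markers Krt19 and Sox9 were above background on all 5.

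Most AMPK genes, like most measured genes, stayed near their level before insulin for the whole hour. Prkab2, near background on most arrays and set against a dim 0 min signal, lay past 1.5-fold at 30 and 60 min. Of 1784 genes above background at 60 min and not at 0 min, 597 were also past 1.5-fold higher when set against 0 min in this way. Of the 7 member genes well above background on all 5 arrays, none was 1.5-fold higher or lower than at 0 min at any time. Among all genes measured on both arrays, the share past that fold was 2.02% at 15 min, 2.06% at 30 min and 2.81% at 45 min. At 60 min it was 7.16%. None of the 7 had a range over the 5 arrays of 1.5-fold, which 16.9% of 16708 genes did. With only 7 genes, none past 1.5-fold cannot be set apart from these shares. With normexp background, another way of removing background, 2 members passed 1.5-fold at 15 min and 5 had such a range, and neither held for any of the 7 once 5 distorting spots of the 15 min array were left out. The median changes of the 7 at the successive times were 0.03, 0.07, 0.09 and −0.12, beside 0.03, 0.02, 0.03 and 0.02 over all measured genes. At 60 min 3 of the 7 lay above their 0 min level and 4 below. The 4 times share the 0 min array. Scaling on 8 added control transcripts instead lowers every change by 0.25, 0.25, 0.31 and 0.19 in order of time, and then each member change above 0 turns negative except those of Camkk2 at 30 min and Stk11 at 60 min.

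**Figure D1:**
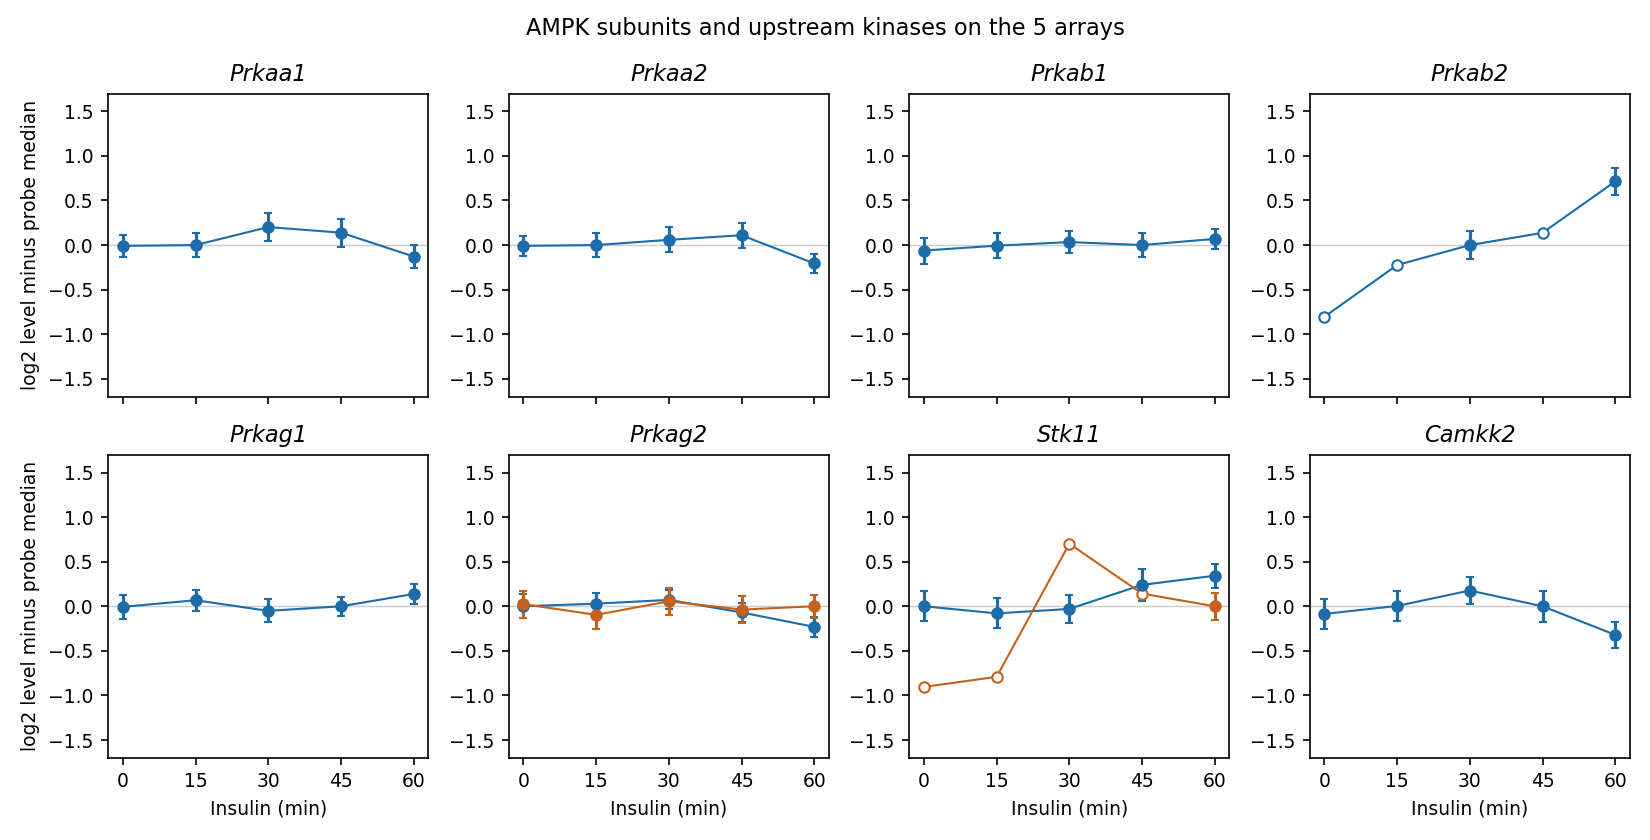
Log2 level of each member probe minus its median over the 5 arrays (y axis) against minutes of insulin (x axis), 1 panel per gene. Filled points are well above background and open points are not, bars are the median SD between spots of replicated probes of like brightness, and the second probe of Prkag2 and Stk11 is in orange. With the scanner's background subtraction, the 60 min value of Prkab2 lies above its other 4, while the brighter probes of the other 7 genes stay within 0.50 log2 units.

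The alpha subunits carry the kinase domain, and either isoform can form the catalytic core. The Prkaa1 probe, at chromosome 2, 54358841 to 54358900 on the rn4 assembly of the array design, had log2 levels of −1.15, −1.14, −0.94, −1.01 and −1.27 in order of time. It was thus highest at 30 min and lowest at 60 min. Its change was 0.21 at 30 min and −0.12 at 60 min, with a technical SD of 0.20 and 0.18. The 30 and 60 min arrays, its extremes, differed by 0.33, which is 1.62 technical SDs. A change of the size seen at 30 min or more was found in 27.4% of all measured genes.

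Prkaa2 is the one member printed as 10 spots, so its technical error was measured directly. Its probe lies at chromosome 5, 126007911 to 126007970 (rn4). The 10 spots ran from 193.3 to 281.9 intensity units (median 253.3) at 0 min, from 181.0 to 253.4 (median 226.3) at 15 min and from 174.8 to 244.1 (median 232.8) at 30 min. They ran from 177.7 to 267.4 (median 235.6) at 45 min and from 299.1 to 394.8 (median 350.3) on the brighter 60 min array. Scaled to their array, the spots had a mean log2 level of −0.28 ± 0.17 (SD over 10 spots of 1 array), −0.28 ± 0.18, −0.22 ± 0.18, −0.17 ± 0.19 and −0.48 ± 0.15 in order of time. The spots of the 5 arrays overlapped.

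Because each spot has the same place on every array, its signal can be followed from array to array. Compared in this way, 10 of 10 Prkaa2 spots were higher at 45 min than at 0 min, by 0.12 ± 0.09 (SD over 10 spots). At 60 min 9 of 10 were lower than at 0 min, by −0.20 ± 0.17, and 10 of 10 were lower than at 45 min, by −0.31 ± 0.20. The direction was shared by the spots, while its size corresponds to 1.15-fold below 0 min at 60 min, a distance that 50.4% of all measured genes reached or passed. The spots share 1 RNA sample per array, so their number does not stand for replicates of the treatment.

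**Figure D2:**
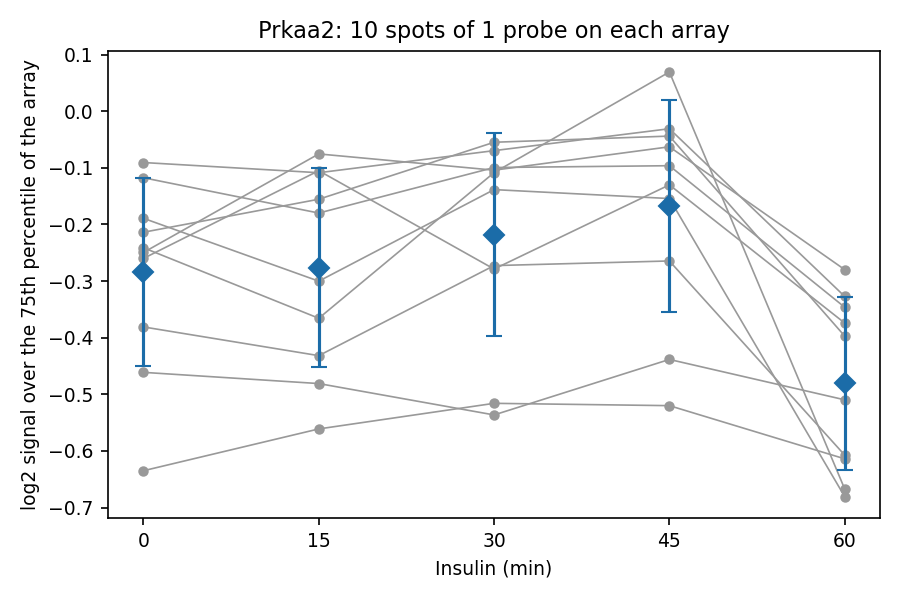
Log2 signal of the 10 Prkaa2 spots over the 75th percentile of their array (y axis) against minutes of insulin (x axis). Grey lines join the spot at 1 place across the 5 arrays, and diamonds with bars are the mean and SD over the 10 spots of an array, which go from −0.17 at 45 min to −0.48 at 60 min.

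Promoter windows, from 250 bases before to 50 after the start of each gene, were taken from RefSeq on the GRCr8 assembly and held 7 of the 8 genes, Prkag2 with a pair of windows. Camkk2 was not among them. They were searched on both strands for GTAAACA (a core of FoxO sites), TGANTCA (AP-1), TGACGTCA (the cyclic AMP response element), GCGNGGGCG (EGR) and GGGCGG (the GC box), where the last can overlap the EGR letters. These are factors or elements known to act in insulin or growth factor responses, and the search was chosen with the array values known. Of the 8 windows, 7 held a GC box, beside 33.1% of all 33469 windows. FoxO letters were in the Stk11 window, beside 3.78% of all windows, and EGR letters in the Prkaa1 window, beside 4.98%. The FoxO letters lie after the start, from position 18, and overlap a GC box. AP-1 and cyclic AMP response element letters, found in 7.33% and 1.83% of all windows, matched none of the 8. The GC content was 60.7% to 81.3%, beside a median of 51.7% over all windows. A match of letters is not a binding site, and occupancy was not measured. The 3 windows below are those of Prkab2 and Stk11, the members farthest above their 0 min level at 60 min, and of Prkaa1, which holds the EGR letters. They are printed 5′ to 3′ on the strand of the gene, with matched letters in capitals. Prkab2 is at chr2:187946151-187946450 (plus strand), Stk11 at chr7:10241916-10242215 (minus strand) and Prkaa1 at chr2:55967525-55967824 (plus strand).
Prkab2: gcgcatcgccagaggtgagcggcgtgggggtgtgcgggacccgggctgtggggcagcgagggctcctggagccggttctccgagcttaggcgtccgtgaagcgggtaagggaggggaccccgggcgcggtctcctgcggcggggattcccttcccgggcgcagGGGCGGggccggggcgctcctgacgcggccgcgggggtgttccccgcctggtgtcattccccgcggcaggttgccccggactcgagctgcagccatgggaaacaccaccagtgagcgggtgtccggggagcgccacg
Stk11: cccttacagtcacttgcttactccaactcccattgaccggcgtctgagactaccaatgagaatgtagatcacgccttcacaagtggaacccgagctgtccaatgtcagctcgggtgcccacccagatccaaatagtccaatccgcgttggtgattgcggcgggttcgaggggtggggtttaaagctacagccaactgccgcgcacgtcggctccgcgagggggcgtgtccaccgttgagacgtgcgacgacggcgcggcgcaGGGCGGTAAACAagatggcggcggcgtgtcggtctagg
Prkaa1: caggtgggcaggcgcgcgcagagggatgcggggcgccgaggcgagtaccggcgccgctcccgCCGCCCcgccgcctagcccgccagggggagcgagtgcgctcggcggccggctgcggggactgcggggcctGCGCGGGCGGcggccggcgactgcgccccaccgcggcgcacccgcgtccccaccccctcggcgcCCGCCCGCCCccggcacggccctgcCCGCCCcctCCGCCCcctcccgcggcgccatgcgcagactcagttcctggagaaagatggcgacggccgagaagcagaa

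The beta subunits hold the complex together and bind glycogen. Prkab1 had the narrowest range of the member probes with the scaling used here. Its probe, at chromosome 12, 41851182 to 41851241 (rn4), had log2 levels of 4.43, 4.49, 4.53, 4.49 and 4.56 at 0, 15, 30, 45 and 60 min. The range of 0.13 was 0.70 technical SDs, and 95.4% of genes well above background on all 5 arrays had a range at least as wide. With normexp background its range was 0.87, and 0.31 without the distorting spots, wider in both cases than that of Prkaa2 at 0.30 and 0.29. The change at 60 min was 0.13, and −0.06 when arrays were scaled on the added control transcripts, whose shift is given with the processing alternatives.

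Prkab2 was dim on every array. Its probe, at chromosome 2, 192510528 to 192510587 (rn4), read 10.0 intensity units at 0 min, 13.3 at 15 min, 14.8 at 30 min, 16.3 at 45 min and 45.8 at 60 min. Only the 30 and 60 min signals were flagged well above background. These units are not scaled to the brighter 60 min array. On the scaled log2 axis the signals were −4.91, −4.33, −4.10, −3.96 and −3.39 in order of time, each above the one before. The step from 45 to 60 min was about as large as that from 0 to 15 min. Replicated probes of 5 to 25 intensity units had a median SD between spots of 2.1 to 2.8 units.

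Prkab2 lay above its own dim 0 min signal, with bounds of 1.75-fold for 30 min and 2.86-fold for 60 min. Both bounds carry the noise of that dim signal, so neither is a strict lower limit. Under the 5 alternatives of scaling and outlier spots the 60 min bound was 2.52-fold to 2.93-fold, and the 30 min bound was 1.47-fold with scaling on the added control transcripts. Counting such bounds, 2.33% of genes were at least 1.5-fold higher at 30 min, and at 60 min 6.05% were so and 2.01% were at least 2-fold higher. Between the 30 and 60 min arrays, which both measured it, Prkab2 was 1.64-fold higher at 60 min. Of 1784 genes that were above background at 60 min and not at 0 min, 597 had a bound of at least 1.5-fold. A bound as large as that of Prkab2 was found in 8.02% of them. On that array 24489 spots were well above background, beside 22069 to 22819 on the others, and the part of the slide in the Prkab2 value was not tested. With normexp background correction, which adds 50 units to every spot and so exceeds every Prkab2 signal, no fold over 0 min was left at 60 min and the 60 min level was 0.28 below that at 30 min. There was 1 Prkab2 probe, printed as 1 spot, so no second measurement was at hand.

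The gamma subunits bind AMP, ADP and ATP. Prkag1, whose probe lies at chromosome 7, 137583141 to 137583200 (rn4), had log2 levels of 2.27, 2.35, 2.23, 2.28 and 2.42 at 0, 15, 30, 45 and 60 min. It was lowest at 30 min and highest at 60 min, 0.19 apart, or 1.10 technical SDs. Its change at 60 min was 0.14, or 1.11-fold, and −0.04 with scaling on the added control transcripts.

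Prkag2 was measured by 2 probes. The brighter, at chromosome 4, 5666961 to 5667020 (rn4), had log2 levels of 1.21, 1.23, 1.28, 1.14 and 0.97 in order of time. It peaked at 30 min and was lowest at 60 min, where its change was −0.23, or 1.17-fold lower, with a technical SD of 0.18. The dimmer probe, whose rn4 coordinates run from 5644033 to 5649788 and thus span 5756 bases, had levels of −1.59, −1.71, −1.56, −1.65 and −1.61. Its change at 60 min was −0.02. The changes of the 2 probes differed by 0.21 at most, at 60 min, so the lower 60 min value of the brighter probe was not seen with the dimmer one.

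Among the upstream kinases, Stk11 and Camkk2 ended the hour in opposite directions. Stk11 encodes LKB1, the main AMPK kinase of liver, and its probes are annotated to a predicted transcript. The brighter probe, at chromosome 7, 11102442 to 11102501 (rn4), read 34.3, 28.9, 28.4, 34.4 and 69.5 intensity units in order of time, or log2 levels of −3.13, −3.21, −3.16, −2.89 and −2.79. The 45 and 60 min arrays were the highest. Its changes were −0.08, −0.03, 0.24 and 0.34 at 15, 30, 45 and 60 min, the last with a technical SD of 0.22 and reached or passed by 25.2% of all measured genes. With normexp background, which also adds 50 units to every spot, the 60 min change was −0.13. The sign of this change thus differed with the processing, and the part of the added units in it was not tested. The second probe, at 11102849 to 11102908, read 5.6, 5.3, 14.3, 9.7 and 16.6 units and was well above background at 60 min only. Scaled, these signals were −5.76, −5.64, −4.15, −4.71 and −4.85, so that 60 min lay below 30 and 45 min. At 60 min the probe was at least 1.47-fold higher than at 0 min, and no fold was left with normexp background.

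Camkk2 encodes the calcium-dependent AMPK kinase. Its probe, whose rn4 coordinates on chromosome 12 run from 34930464 to 34934857, had log2 levels of −3.04, −2.95, −2.78, −2.95 and −3.27 in order of time. It had the widest range of the members well above background on all 5 arrays, 0.50 between 30 and 60 min, or 2.37 technical SDs. On slide 1 alone its range was 0.26, below that of Stk11 at 0.32, and with scaling on the added control transcripts it was 0.44, below Stk11 at 0.49. The change was 0.26 at 30 min and −0.235 at 60 min, the latter with a technical SD of 0.22. Genes of the same brightness, within 0.5 log2 units, had a median change of −0.01 at 60 min.

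**Figure D3:**
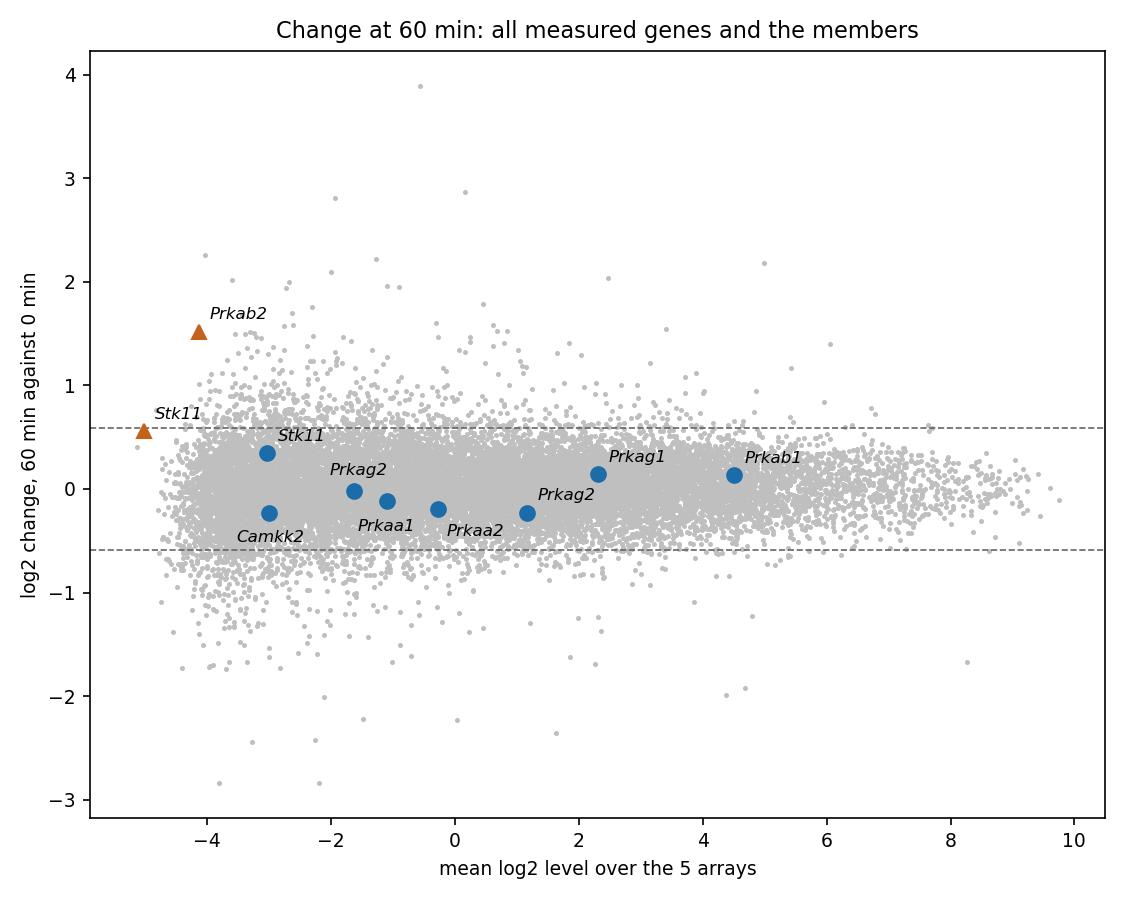
Log2 change at 60 min against 0 min (y axis) over the mean log2 level of the 5 arrays (x axis). Grey points are the 17833 genes well above background on both arrays, and circles are member probes measured on both arrays. Triangles are bounds for probes not well above background at 0 min, and dashed lines mark 1.5-fold. The circles lie between −0.235 and 0.34, inside the dashed lines, and the Prkab2 bound of 1.52 lies above them.

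The brighter probes of the 7 genes fell into 2 courses by the array at which each was lowest or highest. The dimmer Prkag2 probe fell into neither, being lowest at 15 min and highest at 30 min. Prkaa1, Prkaa2, the brighter Prkag2 probe and Camkk2 were highest at 30 or 45 min and lowest at 60 min. Their changes at 60 min stayed below 0 under all 12 alternatives tried, which share the 60 min array. Some of these could not turn the sign. The filters on dim probes left these values as they were, and scaling on the added control transcripts lowers every change. Prkab1, Prkag1 and the brighter Stk11 probe were highest at 60 min. Both courses rest on the 60 min array, alone on slide 2, so time and slide cannot be told apart in them. On slide 1 alone Prkab1 was highest at 30 min, Prkag1 at 15 min and the brighter Stk11 probe at 45 min. With scaling on the added control transcripts, 0 min became the highest array of Prkaa1, Prkaa2, Prkag2, Prkab1 and Prkag1, and normexp background put Stk11 at 60 min below 0 min. Among probes well above background on all 5 arrays, the centred profiles of the catalytic pair Prkaa1 and Prkaa2 were the closest. Their Euclidean distance was 0.12 log2 units over 5 arrays, beside 0.13 for Prkab1 and Prkag1. The profiles of the upstream pair Stk11 and Camkk2 were the farthest apart, at 0.68. The distances of 0.12 and 0.13 are too near each other for a firm order. All these distances take in the 60 min array on slide 2, and the order of pairs on slide 1 alone was not examined. With the levels of a probe put in order, no probe well above background on all 5 arrays had neighbours more than 0.24 apart. Neighbours in that order thus do not differ beyond 2 technical SDs of single spots. Prkaa2 is a mean of 10 spots, and its gap of 0.20 between 60 and 0 min had a standard error over spots of 0.05. That error covers spots of 1 RNA sample per array and holds no difference between arrays, slides or cultures.

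Camkk2, as the member probe of widest range over the 5 arrays with the scaling used here, was set against 8790 named genes well above background on all 5 arrays. The 5 genes with the smallest Euclidean distance to its centred profile were Pink1 at 0.04, Nnt at 0.05, Mrpl3 at 0.05, Cyp2e1 at 0.05 and Mkrn1 at 0.06 log2 units. Pink1, a kinase of damaged mitochondria, had changes of 0.09, 0.28, 0.13 and −0.21 at 15, 30, 45 and 60 min. Over the 4 arrays of slide 1 none of these was among the 5 closest, which were Ifi30, Zfp455, Slc25a17, Oma1 and Rgs11. With 1 array per time and so many genes, such likeness is a description of these arrays.

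The wider pathway was described with 5 lists of 67 genes, 58 of them on the array. Of its genes measured on both arrays, at 15 min 1 of 48 was 1.5-fold higher and 1 lower, beside 1.07% and 0.95% of all measured genes. At 30 min none of 49 passed in either direction, beside 1.14% higher and 0.921% lower. At 45 min 3 of 48 were higher and none lower, beside 1.74% and 1.07%. At 60 min 1 of 48 was higher and 2 were lower, beside 3.44% and 3.72%. The median change of the listed genes was 0.03, 0.01, 0.00 and −0.03 at the 4 times.

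The other genes of the AMPK and LKB1 complexes showed no 1.5-fold change in 6 measured genes at any time. The pseudokinase Strada, an obligate partner of LKB1, had changes of −0.10, −0.26, −0.33 and 0.10, with its lowest level at 45 min. The MO25 scaffold genes had opposite signs at 60 min, with a change of 0.32 for Cab39 and −0.37 for Cab39l. Prkag3, the gamma isoform best known from skeletal muscle, was above background on all 5 arrays, with changes of 0.14, 0.13, −0.05 and −0.22, while its other probe gave −0.12, −0.29, −0.45 and 0.16. Camkk1 was above background on none.

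Of the AMPK-related kinases that LKB1 also activates, 5 of 8 on the array were measured. Sik1, a kinase of CREB coactivators and class II histone deacetylases, had changes of 0.02, 0.50, 0.65 and 0.23 and so was highest at 45 min, by 1.57-fold. Snrk had changes of 0.04, 0.01, 0.21 and −0.74 and was 1.67-fold lower at the last time. Nuak2 had changes of −0.14, 0.01, −0.37 and −0.24.

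Among direct substrates of AMPK, 15 or 16 genes were measured at each time. Pfkfb3, which makes an activator of glycolysis, had changes of 0.87, −0.04, −0.24 and −1.03, on both sides of its 0 min level. Its probe was dim, with log2 levels of −3.25 at 0 min and −4.28 at 60 min. Tbc1d1, a regulator of glucose transport picked out after its values were seen, was 1.86-fold lower at 60 min. Its 60 min signal was not well above background, so this fold carries the noise of a dim signal. The acetyl-CoA carboxylase genes Acaca and Acacb had smaller changes, of 0.19 and 0.39 at 15 min and −0.18 and −0.20 at 60 min. A second Acaca probe gave 0.15 and 0.08. The median change of the measured substrates was 0.08, 0.00, 0.02 and −0.04.

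Among regulators of AMPK and LKB1, Sesn2, a stress-induced sestrin linked to AMPK activity, was 1.72-fold lower at 15 min and had changes of −0.45, 0.01 and −0.32 later. The deacetylase gene Sirt1, which acts on LKB1, had changes of 0.41, 0.53, 0.71 and 0.09 and was 1.64-fold higher at 45 min. Its 1 probe was dim, with a log2 level of −3.52 at 0 min. Genes with levels of −4 to −3 had an SD of change of 0.33 at 45 min. Axin1, a scaffold that brings LKB1 to AMPK, was at −0.48 at 60 min. None of 8 measured genes of adenine nucleotide balance passed 1.5-fold, and among them Ampd3, an AMP deaminase, had a change of 0.41 at 15 min and −0.39 at 60 min, and Nt5e one of −0.27 at 45 min.

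**Figure D4:**
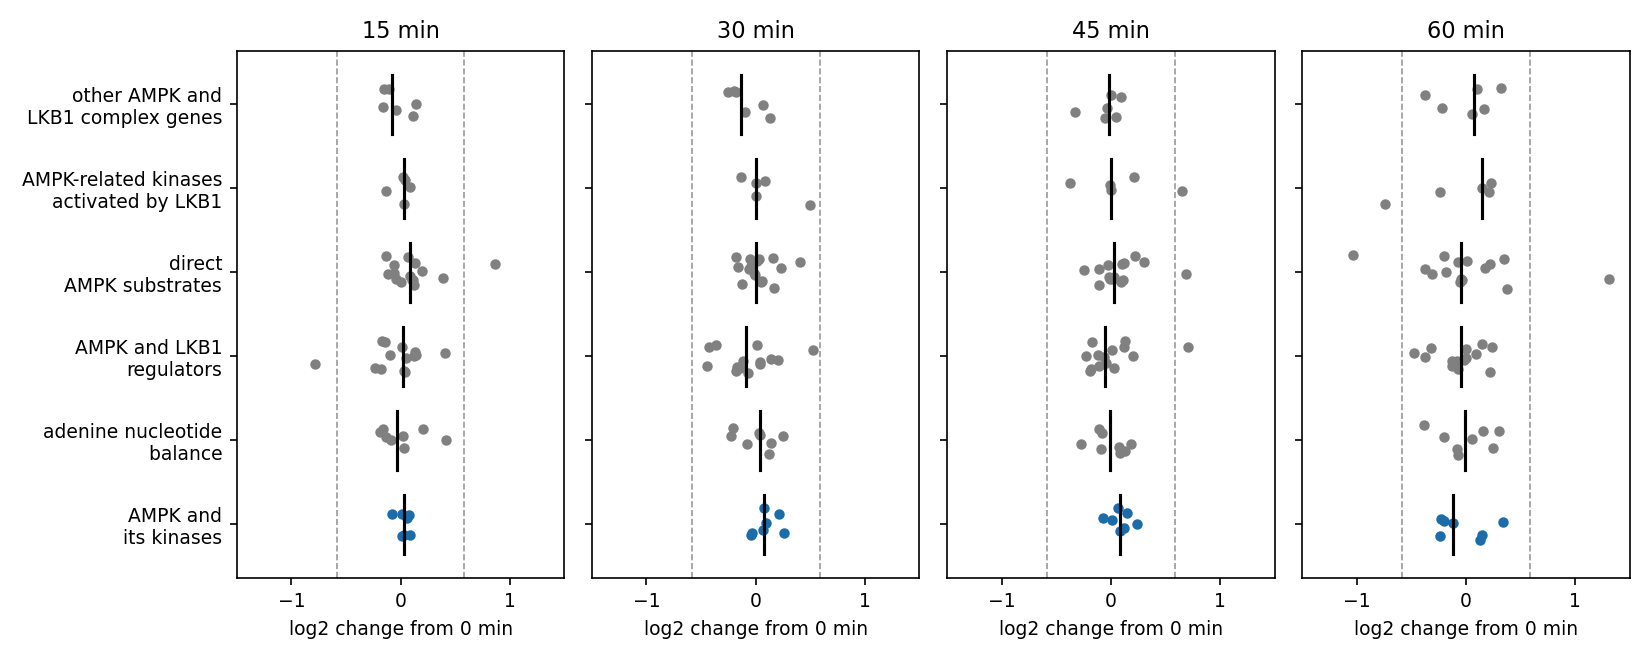
Log2 change from 0 min (x axis) of the genes measured on both arrays at 15, 30, 45 and 60 min, by list (y axis). Points are genes, spread vertically for sight only, black bars are list medians and dashed lines mark 1.5-fold. No AMPK or upstream kinase gene, in blue, crosses the dashed lines, while the substrate gene Pfkfb3 does so at 60 min, at −1.03.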

How the data were processed

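The authors deposited 1 scanner file per array, read with Agilent Feature Extraction 9.5.3.1 per the file headers, and its intensity values were background-subtracted and detrended within the array but not scaled between arrays. They also deposited a table of log2 values, centred per probe on the median of the 5 arrays as the values show; its making is not given in the sources used. It holds 8 of the 10 member probes.

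Control spots were dropped, as were 100 to 163 outlier spots on each array. Spots of a probe were averaged and scaled to the array's 75th percentile, then log2 was taken. A probe counted as measured where a share of at least 0.5 of its spots was well above background. Where that failed on 1 side, its signal there, or the array's lowest detected signal if that was higher, gave a bound ("at least" where the lowest detected signal was used). A probe's own dim signal carries noise and sets no strict limit. The brightest probe stood for a gene. Probes were named by accession (10835), current symbol (5196) or older symbol (3478) from RefSeq GRCr8, and 21503 kept the name in the files. Exons and untranslated parts were not assigned. The error of a level is the median SD between spots of the 30 replicated probes nearest in level (at least 8 spots each). Counting was tested on simulated data.

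The members, lists and promoter motifs were chosen with earlier results of these data known. Genes named beyond the members were the 3 of each list with the largest change on both arrays, Acaca, Acacb and Sik1, and the 5 nearest Camkk2, a few of them not reported here; Prkag3, Camkk1, Tbc1d1 and the second probes were added after their values were seen. Alternatives covered background, scaling, outlier spots, probe choice, dim probes, fold and starting array. Normexp used limma 3.58.1 in R 4.3.3, and all else ran in Python 3.11.15 with pandas 2.3.3 and numpy 2.4.6, with figures by matplotlib 3.10.9.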

Additional observations from a re-analysis of the deposited data

How the results depend on the processing

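Most values moved by less than 1 technical SD. Of 357 member changes recomputed under the alternatives, 319 did so and 38 did not. All 38 were under normexp background (with or without 5 distorting spots) or scaling on 8 added control transcripts. Some of the 319 were fixed in advance. The filters on dim probes could not move members measured on all 5 arrays, and averaging probes moved only Prkag2. Scaling on those transcripts moved the median gene to −0.22, −0.22, −0.29 and −0.17 at 15, 30, 45 and 60 min, the median member to −0.22, −0.17, −0.23 and −0.31 and the median of the pathway lists to −0.22, −0.24, −0.31 and −0.21, with 3 listed genes past 1.5-fold at 30 min. Normexp on all spots put 2 members and 25 listed genes past 1.5-fold at 15 min and 1 listed gene at 45 min. Fitted without 5 spots of the 15 min array whose mean lay over 100 units below their local background, a choice made after seeing the data, it gave no member, and 1 listed gene at 15 and at 45 min. With no filter on dim probes Prkab2 was counted, giving 1 member at 30, 45 and 60 min. From the 15 min array 1 listed gene passed at 30 min and 5 at 60 min. At 2-fold no listed gene passed at 15 or 45 min (0 and 0). No paired analysis was possible because each time has 1 array, and leaving out a replicate was not possible for the same reason. Depth of signal limits Prkab2 and the second Stk11 probe, which were near background on most arrays.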
